A study of Mus musculus with 8 samples.

Results

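Surface receptors of macrophages and monocytes were examined in the diaphragm of normal and dy/dy mice. The set comprised 10 genes (Csf1r, Adgre1, Mrc1, Cd163, Msr1, Cd14, Itgam, Itgb2, Fcgr1 and Fcgr3), and it took in every probe set that the platform annotation assigned to one of them alone. These were 15 of the 22690 probe sets on the array. Csf1r had 3 probe sets, Msr1 had 4 and each of the other genes had 1. Of the 15, 10 passed the filter on dim probe sets and 5 did not, so that 8 of the 10 genes could be tested.

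The dy/dy mouse has a severe muscular dystrophy caused by a deficiency of laminin α2, a chain of the basement membrane around muscle fibres. RNA from 4 pools of dy/dy diaphragm and 4 pools of control diaphragm, named normal in the labels, was hybridised to Affymetrix expression arrays. The mice were 8 weeks old, and each pool joined muscle from 3 animals, 12 per group. The labels give no strain, sex or genotype for the control mice, and pooling hides the spread between single animals. Lama2, the gene of this chain, had a signal of 846 ± 101 in normal and 270 ± 46.1 in dystrophic pools (SD, n = 4), or -1.60 on the log2 scale (SE 0.15), for which limma gave an adjusted p of 8.91e-04.

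Macrophages in skeletal muscle derive from resident cells and from blood monocytes that enter injured tissue. Growth and survival of the lineage depend on CSF1 receptor signalling. Resident-type cells that clear debris and temper inflammation are known for the mannose receptor (Mrc1) and the haemoglobin scavenger receptor (Cd163). Cells that respond to bacteria, opsonised particles and damage are known for Cd14, for the integrin αMβ2 (Itgam with Itgb2) and for activating Fc receptors (Fcgr1 and Fcgr3). Csf1r, Adgre1 and Msr1 are carried by most macrophages and were placed in neither class.

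The start sites of Fcgr1, Fcgr3, Itgam, Mrc1 and Cd163 are shown to set receptors of both classes side by side at the sequence level. They were the 5 of the 10 genes whose symbol matched a start in the RefSeq table used here. PU.1 (Spi1), the transcription factor of the macrophage lineage, binds purine-rich boxes with the core GAGGAA, and capitals mark that core on either strand (TTCCTC on the strand shown). Each line holds 80 bases before and 20 after the annotated start, 5′ to 3′ along the gene, from RefSeq on GRCm38.p6. Fcgr1 lies at chr3:96293950-96294049 (minus strand), Fcgr3 at chr1:171059384-171059483 (minus strand, the first of 2 listed starts), Itgam at chr7:128062560-128062659, Mrc1 at chr2:14229334-14229433 and Cd163 at chr6:124304571-124304670 (plus strand for these 3).
Fcgr1: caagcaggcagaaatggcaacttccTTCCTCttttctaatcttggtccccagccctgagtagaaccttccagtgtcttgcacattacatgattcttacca
Fcgr3: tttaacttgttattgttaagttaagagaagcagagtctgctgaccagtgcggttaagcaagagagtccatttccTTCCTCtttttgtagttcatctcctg
Itgam: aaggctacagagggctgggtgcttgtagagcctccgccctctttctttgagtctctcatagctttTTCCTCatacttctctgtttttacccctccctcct
Mrc1: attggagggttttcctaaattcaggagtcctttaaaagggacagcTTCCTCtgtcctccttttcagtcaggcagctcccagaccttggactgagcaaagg
Cd163: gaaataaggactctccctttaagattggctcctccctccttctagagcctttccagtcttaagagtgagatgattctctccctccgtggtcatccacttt

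The core was present in 4 of these 5 windows, against 10.1% of the windows of 27018 genes in the same table. In all 4 it lay on the strand opposite to the gene. Fcgr1 and Fcgr3 shared a run of 14 bases around it, ttccTTCCTCtttt, which was held by 3 windows of the table on either strand, the third being that of Dock2. The Cd163 window does not contain these letters. A match of letters is a description of the sequence and not a measured site. The genes with no sequence shown are Csf1r, Adgre1, Msr1, Cd14 and Itgb2.

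Signals are MAS5 intensity values, with every array rescaled to a 2% trimmed mean of 487.7, because normal replicate 4 had been deposited at 400.2 and the other 7 arrays at 500.2. Tests used log2(signal + 16). Differences give the dystrophic mean less the normal mean in those units, and they understate the change of dim probe sets. Pool values are listed from replicate 1 to replicate 4, and with 4 arrays per group their number sets the precision. The labels do not say how the pools were kept apart, so a p-value measures the spread between these pools only. Of the 13575 probe sets tested with limma, 67 were called at an adjusted p under 0.05, or 0.494%, with 62 of them (0.457%) higher in dystrophic pools. In a principal component analysis normal replicate 4 (-36.1) and dystrophic replicate 3 (34.0) lay outermost on PC1. The poly-A control signals, from bacterial transcripts added as a spike-in, fell into 3 levels, each holding as many normal as dystrophic pools: replicate 1 at the highest, replicate 3 next, replicates 2 and 4 at the lowest. Summed signals of 13 hepatocyte genes, such as albumin, were 72655 in dystrophic replicate 3, 5852 to 9763 in the other dystrophic pools and 3009.8 to 6046 in the normal pools. The part of this signal in the results was not tested. Without dystrophic replicate 3 the 10 tested receptor probe sets kept their sign, with a median difference of 0.23. All 12 skeletal muscle genes examined passed the filter. Limma called 0 of them, against 0.494% of all tested probe sets. Of the 12, 11 lay below 0 (median -0.21) and 1 above, where 47.7% of all tested lay above. Pvalb (-0.47, limma unadjusted p 0.00898) and Tnnt3 (-0.23) had dystrophic pools all below the normal pools, as did 2.53% of all tested. Myh7 (0.25) had them all above, as did 3.87%. These genes were named after their values were seen. The part of the muscle genes in the receptor values was not tested.

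None of the 10 tested receptor probe sets passed the threshold, and 2 of them, from Csf1r and Adgre1, had an unadjusted p under 0.05, both higher in dystrophic diaphragm. Over all tested probe sets 9.72% had an unadjusted p under 0.05, and 5.60% had one with a positive difference. Of the 10, 9 lay above 0, against 47.7% of all tested, and their median log2 difference was 0.26, against -0.01 over all tested probe sets. The range ran from -0.35 for Cd163 to 0.75 for Adgre1. Over all 15 receptor probe sets, dim ones included, 14 lay above 0, with a median of 0.34. In whole muscle, more cells of a type and more transcript per cell cannot be told apart.

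**Figure D1:**
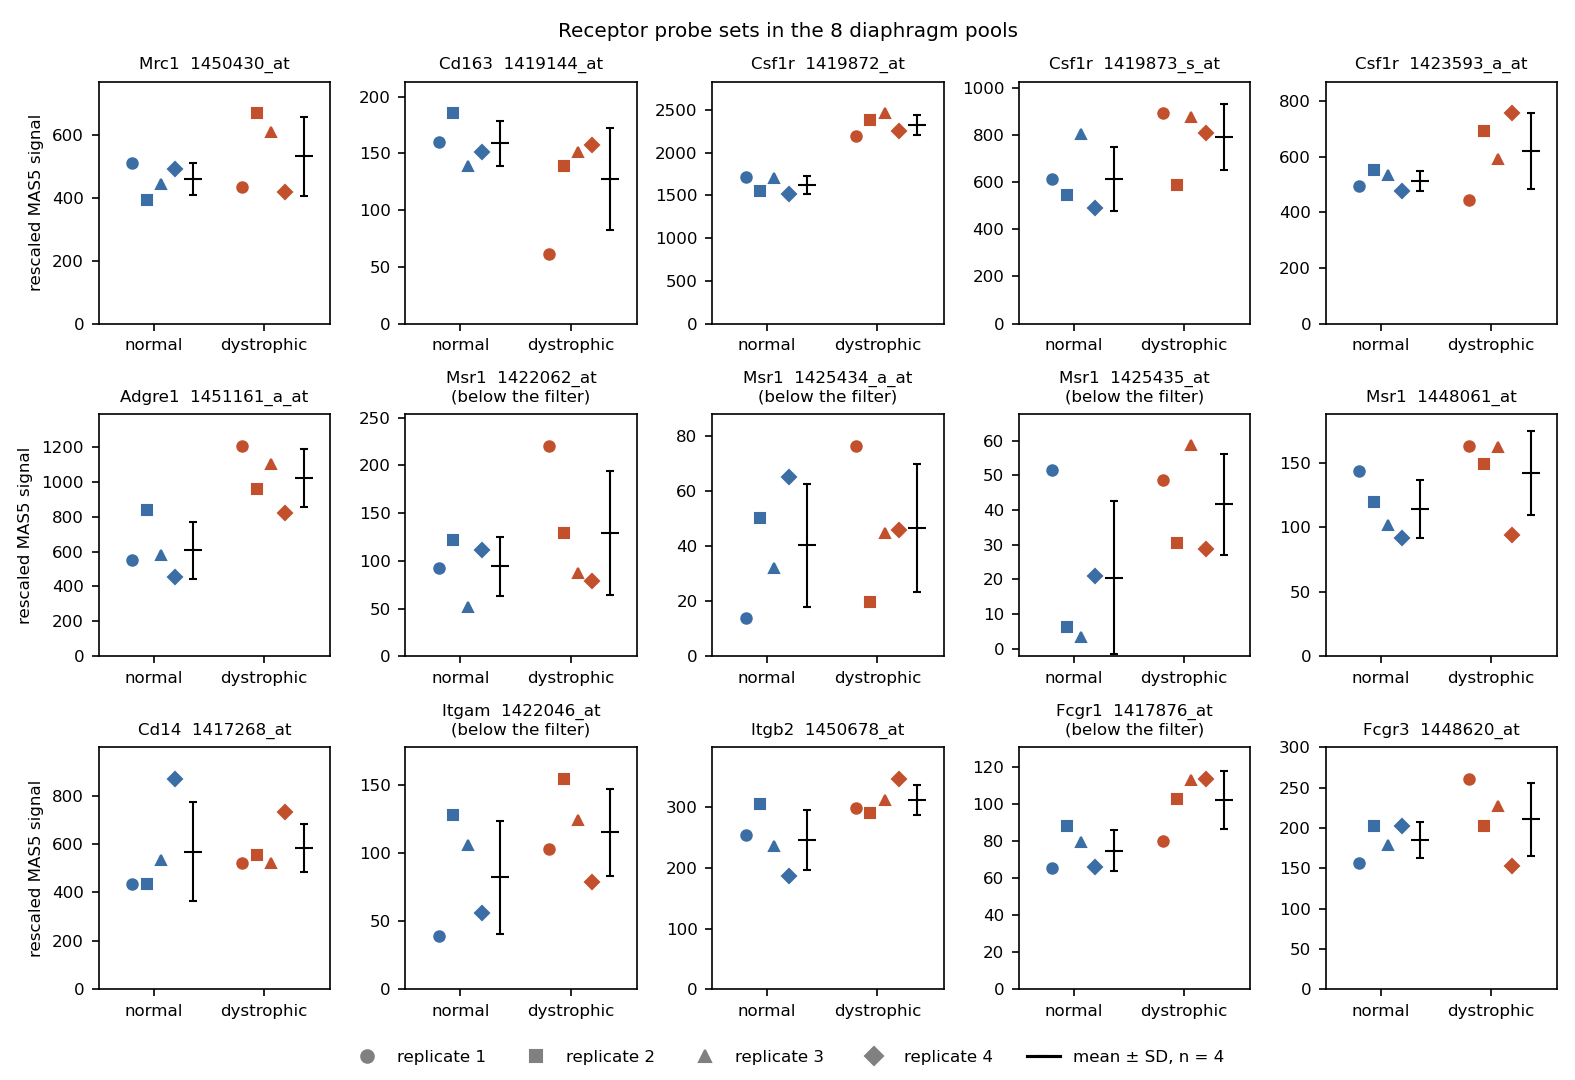
Rescaled MAS5 signal (y axis, linear) of each of the 15 receptor probe sets in the 4 normal and 4 dystrophic pools. Marker shapes give the replicate number and bars the mean ± SD (n = 4). Only for Csf1r 1419872_at do all dystrophic pools, at 2198.8 to 2463, lie above all normal pools, at 1514 to 1719.8.

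Csf1r encodes the receptor tyrosine kinase for CSF1 and IL-34. Its probe set 1419872_at had signals of 1719.8, 1555.5, 1700.3 and 1514 in the normal pools and of 2198.8, 2378, 2463 and 2254 in the dystrophic pools. Every dystrophic pool lay above every normal pool, which held for 3.87% of all tested probe sets. The opposite order, seen in 2.53% of them, occurred for 0 of the 10 tested receptor probe sets. The means were 1622 ± 103 and 2324 ± 119 (SD, n = 4), a ratio of 1.43. The log2 difference was 0.51 (SE 0.11, 95% interval 0.27 to 0.76), with a limma adjusted p of 0.0815, and an exact permutation test (two-sided) returned 0.0286, which is the lower limit for 4 pools against 4. By limma's p this probe set ranked 110 among the 13575. With array weights estimated from the data the adjusted p was 0.0432, the 1 alternative among 21 in which a receptor probe set was called.

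The other Csf1r probe sets differed less. 1419873_s_at had 612, 546, 804 and 490.3 in normal and 895, 589, 876 and 811 in dystrophic pools, a log2 difference of 0.37 (95% interval -0.03 to 0.77, limma adjusted p = 0.551). Its lowest dystrophic pool, replicate 2, lay below 2 of the normal pools. 1423593_a_at had 494, 553, 534 and 476 in normal and 444, 693, 593 and 758 in dystrophic pools, a difference of 0.24 (95% interval -0.12 to 0.61, limma adjusted p = 0.701). Here 3 dystrophic pools lay above all normal pools, and dystrophic replicate 1 lay below all of them. All 3 Csf1r probe sets thus had a positive difference, and 1 of 3 had groups that did not overlap. Within the poly-A control levels the difference of 1419872_at was 0.35 for replicate 1, 0.53 for replicate 3 and 0.59 for replicates 2 and 4. For 1423593_a_at the same values were -0.15, 0.15 and 0.48. Without dystrophic replicate 3 the difference of 1419872_at was 0.49 (limma adjusted p = 0.255). That of 1423593_a_at ran from 0.14 without dystrophic replicate 4 to 0.39 without dystrophic replicate 1.

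The ligands of this receptor gave no call. Csf1 was tested by 3 probe sets, at -0.12, 0.15 and -0.08. The brightest of them had 485 ± 53.2 in normal and 461 ± 86.2 in dystrophic pools (SD, n = 4; 95% interval -0.42 to 0.26, limma adjusted p = 0.921). Il34 had 116, 147, 111 and 96.6 in normal and 193, 151, 183 and 179 in dystrophic pools. These groups did not overlap, with a difference of 0.53 (SE 0.18, 95% interval 0.14 to 0.93), but limma gave an adjusted p of 0.324.

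Adgre1, the F4/80 antigen used to identify mouse macrophages, had the largest difference among the tested receptor probe sets. Its signals were 553, 836, 581 and 457 in normal and 1204.6, 958, 1098 and 822 in dystrophic pools. Normal replicate 2 lay above dystrophic replicate 4, and apart from that pair the groups were separate. The means were 607 ± 162 and 1021 ± 167 (SD, n = 4), a ratio of 1.68. The log2 difference was 0.75 (SE 0.19, 95% interval 0.34 to 1.17), with a limma adjusted p of 0.139 and an exact two-sided permutation p of 0.0571. Without normal replicate 2 it was 0.92 (limma adjusted p = 0.0611), and without dystrophic replicate 3 it was 0.72 (limma adjusted p = 0.350). Within the poly-A control levels it was 1.10, 0.90 and 0.51 for replicate 1, replicate 3 and replicates 2 and 4.

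**Figure D2:**
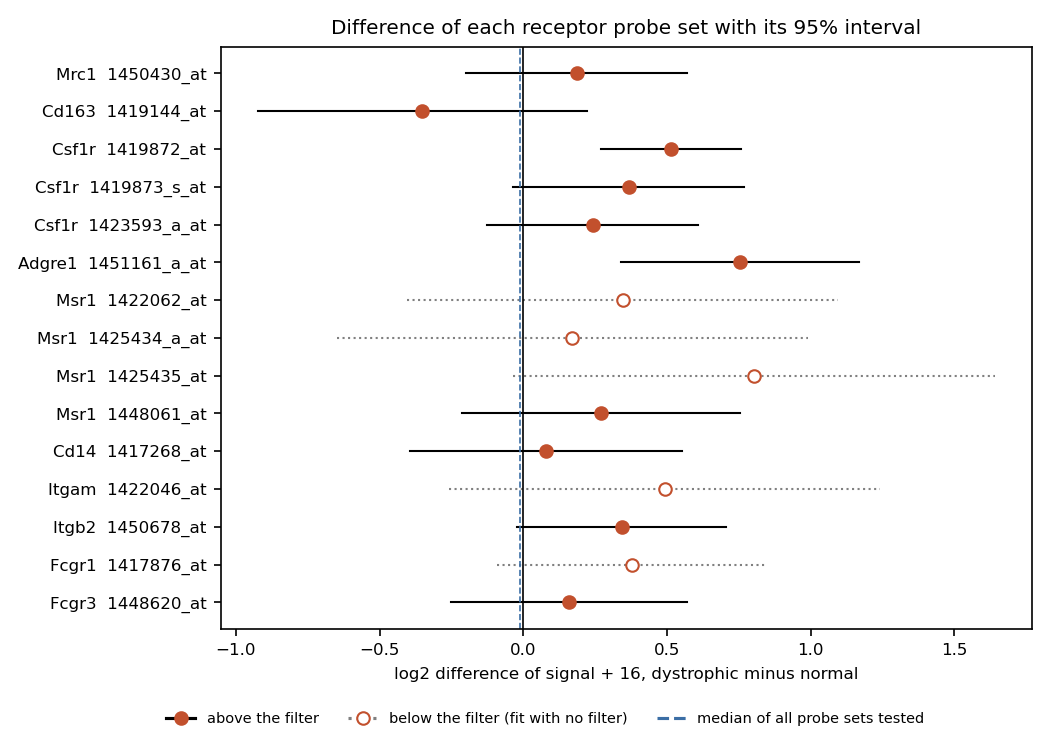
Log2 difference of signal + 16 (x axis, dystrophic minus normal) of each receptor probe set, with its 95% interval from limma. Filled points passed the filter and open points did not, the latter with dotted intervals from a fit with no filter. The intervals of Csf1r 1419872_at (0.27 to 0.76) and Adgre1 (0.34 to 1.17) lie above 0, and all others include it.

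The resident-type receptors showed no common direction. Mrc1, the mannose receptor, an endocytic lectin, had 509, 394, 443 and 491 in normal and 434, 669.8, 609 and 418 in dystrophic pools. Dystrophic replicates 2 and 3 lay above all normal pools, while replicates 1 and 4 lay within the normal range. The difference was 0.19 (SE 0.18, 95% interval -0.20 to 0.57, limma adjusted p = 0.798). It was 0.07 without dystrophic replicate 2 and 0.11 without dystrophic replicate 3.

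Cd163, which takes up haemoglobin bound to haptoglobin, was the 1 receptor of the 10 with a negative difference. It had 160.4, 185, 139 and 151 in normal and 61.0, 139, 152 and 157 in dystrophic pools. Dystrophic replicate 1 stood far below the other pools, and the other 3 dystrophic pools lay just below the normal mean of 159 or at the level of the lowest normal pool. The difference was -0.35 (SE 0.26, 95% interval -0.92 to 0.22, limma adjusted p = 0.726), and without dystrophic replicate 1 it was -0.08 (limma adjusted p = 0.920). Hp, the haptoglobin gene, had 215 to 768 in normal pools and 2142 in dystrophic replicate 3, against 429 to 839.6 in the other dystrophic pools (limma adjusted p = 0.598). Hp is made in quantity by the liver, and the pool with the high value was the one with the high hepatocyte signal. Whether the high Hp value and that signal are linked was not tested. Hmox1, the enzyme that breaks down haem, did not pass the filter.

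Of 5 other genes known from resident-type macrophages, Stab1, Mgl2 and Mertk lay above 0, Folr2 lay below it and Lyve1 had both signs. Folr2, a folate receptor, was at -0.19 (95% interval -0.54 to 0.17, limma adjusted p = 0.776). Lyve1, a hyaluronan receptor that lymphatic endothelium also carries, had 2 tested probe sets of opposite sign, at 0.15 (95% interval -0.17 to 0.47, limma adjusted p = 0.808) and -0.41 (95% interval -0.92 to 0.09, limma adjusted p = 0.608). Stab1, a scavenger receptor, was at 0.36 (95% interval 0.03 to 0.70, limma adjusted p = 0.470), and Mgl2, a lectin, also at 0.36 (95% interval -0.0014 to 0.72, limma adjusted p = 0.514). Mertk, a receptor for the uptake of dying cells, had 152 to 203 in normal and 220 to 289 in dystrophic pools, with no overlap (0.58, 95% interval 0.23 to 0.94, limma adjusted p = 0.185). No probe set of these 5 genes passed the threshold, and they were picked after their values were seen. They come from the list of other macrophage genes described below, which held genes already known to rise in these data. By the brightest probe set of each gene, 21 of the 22 tested in that list lay above 0, and Folr2 was the 1 below. Of all tested probe sets 47.7% lay above 0.

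Msr1, scavenger receptor A, takes up modified lipoproteins and debris. Its 1 tested probe set, 1448061_at, had 143, 119, 102 and 91.5 in normal and 163, 149, 162 and 94.3 in dystrophic pools. Of the dystrophic pools 3 lay above all normal pools, and replicate 4 lay near the lowest of them. The difference was 0.27 (SE 0.22, 95% interval -0.21 to 0.75, limma adjusted p = 0.760). Its mean over the normal pools alone lay below the cut of the filter, which it passed through the dystrophic pools, and without dystrophic replicate 4 the difference was 0.43. The other Msr1 probe sets were too dim to be tested, with signals of 52.1 to 220 for 1422062_at, 13.8 to 76.4 for 1425434_a_at and 3.51 to 58.8 for 1425435_at. The last 2 reach down into the range of the Trpn controls, 0.78 to 32.2, bacterial sequences that gave almost no signal here. All 3 differences were above 0, at 0.35, 0.17 and 0.80, and in all 3 the groups overlapped.

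Cd14, the co-receptor that hands lipopolysaccharide to TLR4 and MD-2, did not separate the groups. It had 436, 434, 535 and 869 in normal and 523, 555, 523 and 732 in dystrophic pools, and the highest value of all 8 was that of normal replicate 4. The difference was 0.08 (SE 0.22, 95% interval -0.39 to 0.55, limma adjusted p = 0.948). It was slightly negative without normal replicate 1 (-0.02) or 2 (-0.03) or dystrophic replicate 4 (-0.03). Among its partners, Tlr4 was at 0.17 (95% interval -0.26 to 0.60), Ly96, which encodes MD-2, at 0.02 (95% interval -0.39 to 0.42) and Lbp, the lipopolysaccharide-binding protein, at 0.28 (95% interval 0.00 to 0.57). Limma's adjusted p was 0.849, 0.990 and 0.511.

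The integrin subunits lay higher in most dystrophic pools. Itgb2, the β2 chain shared by several leukocyte integrins, had 254, 306, 237 and 186 in normal and 299, 291, 312 and 347 in dystrophic pools. All 4 dystrophic pools exceeded the normal mean of 246 ± 49.5 (SD, n = 4), but normal replicate 2 lay within the dystrophic range. The difference was 0.34 (SE 0.17, 95% interval -0.02 to 0.71, limma adjusted p = 0.538). It was 0.22, 0.37 and 0.39 for replicate 1, replicate 3 and replicates 2 and 4. Without normal replicate 4, the lowest pool, the difference was 0.23.

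Itgam, the αM chain that pairs with Itgb2 as the complement receptor CR3, did not pass the filter. It had 38.7, 128, 105 and 55.7 in normal and 103, 154, 124 and 79.0 in dystrophic pools. The values spread as widely within the normal group as between groups, and the difference was 0.49 (95% interval -0.26 to 1.24 with no filter). Itgal and Itgax, the other α chains examined, were also below the filter. All 3 probe sets of Fermt3, kindlin-3, which activates β2 integrins, were below the filter too, and limma did not test them. The brightest, 1456014_s_at, had 60.6, 81.8, 100.4 and 95.9 in normal and 147, 151, 161 and 197 in dystrophic pools. Its groups did not overlap (exact two-sided permutation p = 0.0286). In 1433963_a_at and 1433964_s_at the groups overlapped, with differences of 0.79 and 0.18 (exact two-sided permutation p = 0.114 and 0.2). Icam1, a ligand of β2 integrins, was at -0.09 (95% interval -0.58 to 0.41, limma adjusted p = 0.947).

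The activating Fc receptors had small positive differences. Fcgr1, the high-affinity receptor for IgG, was below the filter, with 65.6, 88.3, 79.9 and 66.3 in normal and 80.047, 103, 113 and 114 in dystrophic pools. Dystrophic replicates 2, 3 and 4 lay above all normal pools, and replicate 1 lay within their range. The difference was 0.38 (95% interval -0.09 to 0.85 with no filter), with an exact two-sided permutation p of 0.0571. Fcgr3, the low-affinity activating receptor, had 156, 202, 179 and 202 in normal and 261, 202, 227 and 153 in dystrophic pools. Here the lowest and the highest pool were both dystrophic, and the difference was 0.16 (SE 0.19, 95% interval -0.25 to 0.57, limma adjusted p = 0.847). It ran from 0.06 without dystrophic replicate 1 to 0.29 without dystrophic replicate 4.

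Both activating receptors signal through the γ chain encoded by Fcer1g. Fcer1g had 82.6, 111, 149 and 32.9 in normal and 187, 291, 217 and 332 in dystrophic pools. The groups did not overlap, and the difference was 1.41 (SE 0.34, 95% interval 0.67 to 2.15, limma adjusted p = 0.125). Tyrobp (DAP12), a related adaptor of myeloid receptors, had 423, 481, 365 and 406 in normal and 741, 629, 646 and 893 in dystrophic pools, also with no overlap (0.77, SE 0.15, limma adjusted p = 0.0552). Syk, the kinase downstream of both adaptors, was at 0.19 (95% interval -0.29 to 0.67, limma adjusted p = 0.845), and Fgr, a myeloid kinase, at 0.30 (95% interval -0.19 to 0.79, limma adjusted p = 0.725). Fcgr4, a further activating receptor, was at 0.16 (95% interval -0.35 to 0.68, limma adjusted p = 0.886).

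Fcgr2b, the inhibitory Fc receptor, rose by 2 of its 4 probe sets. 1435477_s_at had 149, 188, 222 and 245 in normal and 360.2, 492, 642 and 618 in dystrophic pools, a difference of 1.31 (SE 0.21, limma adjusted p = 0.0172). 1451941_a_at had 158, 183, 215 and 178 in normal and 338, 341, 454 and 404 in dystrophic pools, a difference of 1.00 (SE 0.16, limma adjusted p = 0.0166). In both, every dystrophic pool lay above every normal pool. The probe set with the highest mean, 1435476_a_at, was at 0.50 (SE 0.17, limma adjusted p = 0.301), and 1455332_x_at at 0.81 (SE 0.31, limma adjusted p = 0.418). Both calls were lost without normal replicate 2 (limma adjusted p = 0.0594 and 0.0537) or dystrophic replicate 3 (0.0766 for both) or 4 (0.0935 for both), and that of 1435477_s_at also without dystrophic replicate 2 (0.0589). Without normal replicate 4 and dystrophic replicate 3 together, limma's adjusted p was 0.0855 and 0.144. These probe sets were singled out after their values were seen. Fcgr2b and Fcgr3 have closely similar extracellular exons, and whether these probes separate them is not given in the sources used here.

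In the list of ligands and partners of the receptors, 18 of 21 genes were measured and 14 tested, with the brightest probe set standing for each. Limma called 0 of the 14, and 5 had an unadjusted p under 0.05, all higher, where 5.60% of all tested probe sets did so. With robust hyperparameters, array weights or the poly-A control level as a block, 1 was called. The median difference of this list was 0.24, and 3 of its 14 genes had dystrophic pools all above the normal pools, against 3.87% of all tested probe sets. Of those 3, Il34 and Fcer1g had normal means below the cut of the filter and passed it through the dystrophic pools.

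The resident-type and the inflammatory-type receptors were set side by side by pool. For each array the log2 values were averaged over Mrc1 and Cd163 and over Cd14, Itgam, Itgb2, Fcgr1 and Fcgr3, and are given relative to the mean of the normal pools. The inflammatory-type mean was -0.27, 0.20, 0.08 and -0.01 in the normal pools and 0.23, 0.34, 0.34 and 0.25 in the dystrophic pools, so that all 4 dystrophic pools lay above all 4 normal pools. That separation rested on the dim Itgam and Fcgr1: over the 3 genes above the filter the mean reached 0.14 in normal replicate 4 and was 0.13 in dystrophic replicate 2, and the group difference was 0.19. The resident-type mean was 0.08, 0.00, -0.10 and 0.02 in normal and -0.62, 0.18, 0.17 and -0.07 in dystrophic pools, on both sides of the normal range. The group differences were 0.29 and -0.08, which left 0.37 between the classes. With the genes above the filter only, the gap was 0.28. Without dystrophic replicate 1, whose Cd163 signal was the lowest, the resident-type difference turned to 0.10 and the gap was 0.21. Without normal replicate 1 the inflammatory-type difference was 0.20 and the gap 0.26. No test was made of these means, since the genes were chosen with results of these data known.

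**Figure D3:**
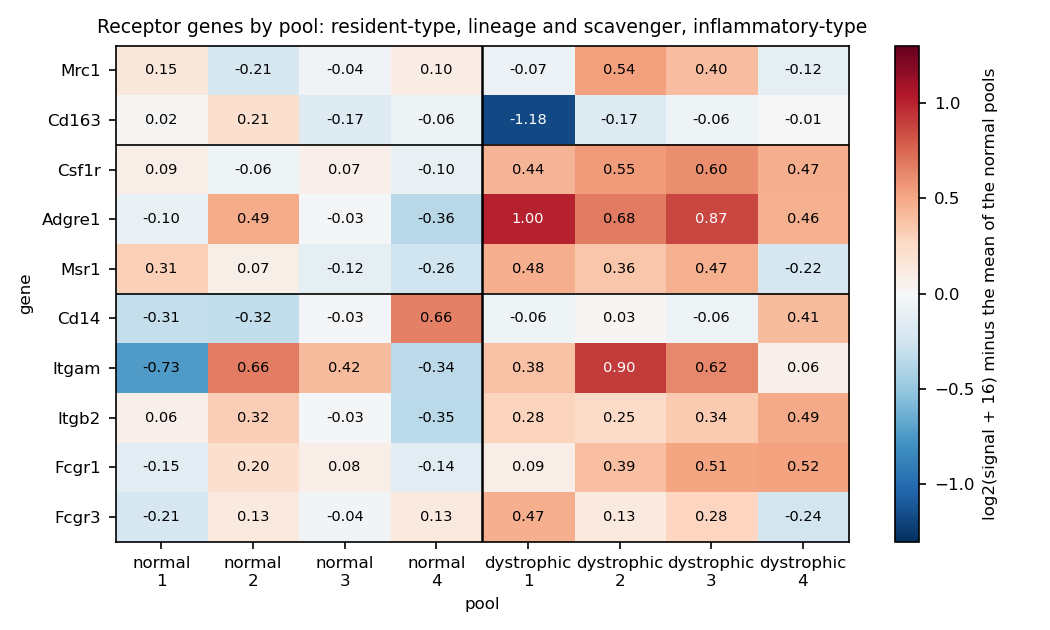
Log2(signal + 16) of each of the 10 receptor genes (rows, by the probe set with the highest mean) in each of the 8 pools (columns), relative to the mean of the normal pools. Horizontal lines divide resident-type (Mrc1, Cd163), lineage and scavenger (Csf1r, Adgre1, Msr1) and inflammatory-type receptors. The dystrophic columns are positive throughout for Csf1r, Adgre1, Itgam, Itgb2 and Fcgr1, and Cd163 in dystrophic replicate 1 has the lowest value, at -1.18.

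The highest values were spread over all 4 dystrophic pools. Taking the brightest probe set of each gene, dystrophic replicate 1 had the highest value of all pools for 3 of the 10 genes, replicates 2 and 4 for 2 each and replicate 3 for 1, while normal replicates 2 and 4 held 1 each. The lowest value lay in normal replicate 4 for 4 genes, in normal replicates 1 and 2 for 2 each, and in dystrophic replicates 1 and 4 for 1 each.

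Among other macrophage genes 5 rose, which none of the receptors did by the same test; the difference between the lists was not tested. Of 32 in the list, 31 were measured and 22 tested, of which 5 rose (against 0.457% over all probe sets), 0 fell and 17 did not pass. Of the 5, Mpeg1 and Gpnmb had normal means below the cut of the filter and passed it through the dystrophic pools, so their count is no support for the list. The list held genes already known to rise in these data and is no independent evidence of the direction. Mpeg1, a pore-forming protein, was at 2.03 (SE 0.24, limma adjusted p = 0.00436), the lectin Lgals3 at 1.56, Gpnmb at 1.53, the protease Ctss at 1.33 and Cd68, an endosomal glycoprotein, at 0.96 (SE 0.15, limma adjusted p = 0.0165). The median over the 22 was 0.69, and 18 had an unadjusted p under 0.05, all higher, where 5.60% of all tested probe sets did so. For the 10 tested receptor probe sets, from 8 genes, the median was 0.26 and 2 had such a p. The first count is of genes and the second of probe sets. Within the poly-A control levels (replicate 1, replicate 3, replicates 2 and 4) Mpeg1 was at 2.12, 2.92 and 1.54 and Cd68 at 0.93, 0.63 and 1.14. The Cd68 call was lost without normal replicate 2 or dystrophic replicate 2, 3 or 4 (limma adjusted p up to 0.0935), and those of Cd68 and Gpnmb without normal replicate 4 and dystrophic replicate 3 together (0.0947 and 0.0855). Ptprc (CD45), carried by all leukocytes, was at 0.81 (SE 0.20, limma adjusted p = 0.134), with no overlap between groups.

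**Figure D4:**
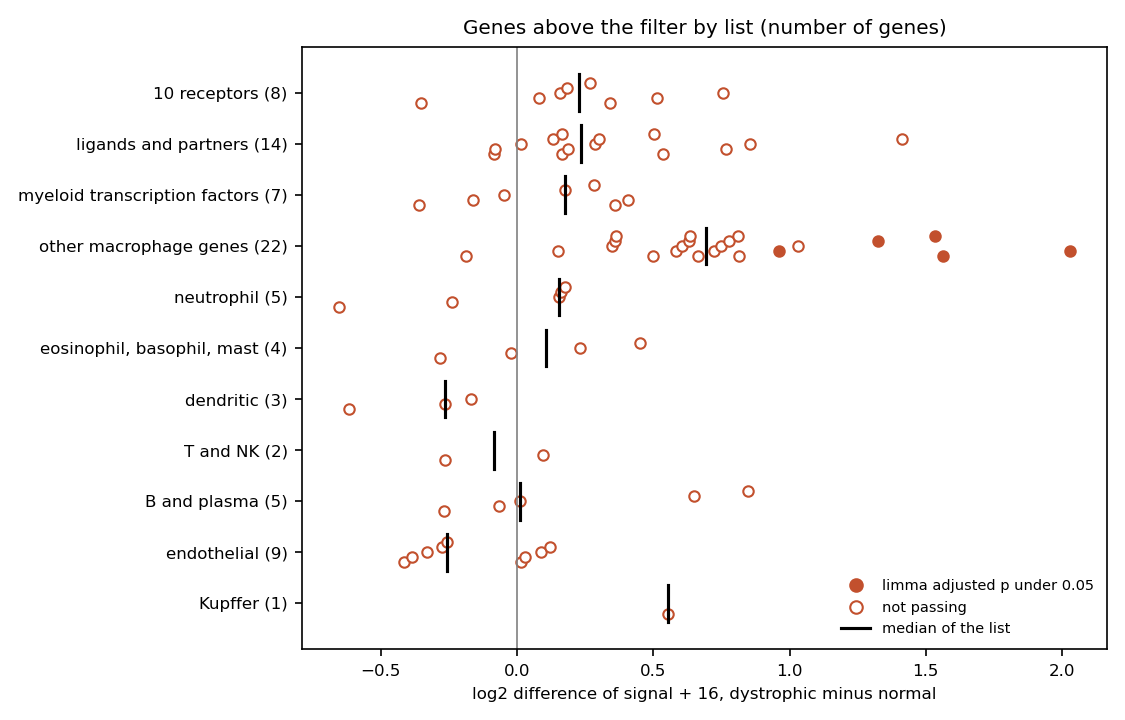
Log2 difference of signal + 16 (x axis, dystrophic minus normal) of the genes that passed the filter, by list, 1 point per gene. Filled points have a limma adjusted p under 0.05 and black bars are list medians. The 5 filled points, all among other macrophage genes, lie between 0.96 and 2.03, and the 8 tested receptors between -0.35 and 0.75.

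Genes of other cell types that could share these receptors gave no call, where limma called 0.494% of all tested probe sets. With so few genes tested, the absence of a call says little about these cells. Neutrophils also carry Itgam, Itgb2 and Cd14. Of 12 neutrophil genes measured, 7 were below the filter and limma called 0 of the 5 tested. Of these 5, 1 had an unadjusted p under 0.05, and it was lower. Of all tested probe sets 9.72% had such a p in either direction, and 5.60% had one and were higher. The summed signal of the 12 was 1251 to 1884 in normal and 949 to 1852 in dystrophic pools. S100a8 and S100a9, the most abundant neutrophil products, were below the filter. Of 15 T and NK cell genes 13 were below the filter. B and plasma cell genes had a summed signal of 1148 to 3963 in normal and 1175 to 4270 in dystrophic pools, and of 5 tested limma called 0 (0 had an unadjusted p under 0.05). Among Kupffer cell genes, Clec4f and Cd5l were below the filter, and Vsig4, which other macrophages share, had 82.9 to 132 in normal and 134 to 222 in dystrophic pools (0.55, SE 0.21, limma adjusted p = 0.428). Vsig4 had a normal mean below the cut of the filter and passed it through the dystrophic pools. The part of these cells in the receptor values was not tested.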

How the data were processed

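The deposited values are linear signal intensity, in 1 column for each of the 8 pools. Per the submitters' processing notes they were made with MAS5, which subtracts mismatch signals and scales each array; no version, detection calls or scan dates were given. Arrays were rescaled to a common trimmed mean because the deposited trimmed means differed by more than 10%. The 64 control probe sets and the lowest 40% of the others by mean log2 value were left out. The platform annotation named 1 gene for 20380 of the remaining 22626, several for 691 and none for 1555; symbols were updated through Entrez identifiers with RefSeq (GRCm38.p6), where 20351 matched. Tests were made on log2 values with limma 3.58.1 under R 4.3.3 (a 2-group lmFit, eBayes with an intensity trend, Benjamini-Hochberg over all probe sets tested) without a block, and the fit was tested on simulated data. Intervals are limma's 95% intervals. Exact permutation tests were two-sided over the 8 arrays and unadjusted. A gene with several probe sets was represented in lists by the one with the highest mean log2 value. Every receptor probe set was named, and from other lists the called genes and the partners of a receptor. Stab1, Folr2, Lyve1, Mgl2, Mertk, Pvalb, Tnnt3, Myh7, Ptprc, Vsig4, Ccr2, Cx3cr1, Mitf, Runx1, Dock2 and Fcgr2b's single probe sets were chosen after their values were seen. The receptors and lists were chosen with earlier results of these data known. Alternatives changed the offset (1 or 64), the scaling (quantile, 75th percentile, or values as deposited) and the filter (none, or the lowest 60%), and used no trend, robust hyperparameters, array weights, 2 blocks, each array left out, and normal replicate 4 and dystrophic replicate 3 left out together. Figures used matplotlib 3.10.9 in Python 3.11.15.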

Additional observations from a re-analysis of the deposited data

Results flagged for a closer look

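In 30 groups of 4 pools (15 receptor probe sets in each group of mice), the distance of the highest or lowest pool from its nearest neighbour was compared with the whole range on the log2(signal + 16) scale, and 2 groups exceeded Dixon's 95% critical value. About 1 in 20 groups would do so by chance. In Cd163 the dystrophic replicate 1 pool, at 61.0 against 139 to 157 in the other dystrophic pools, gave a ratio of 0.863. In Msr1 1448061_at the dystrophic replicate 4 pool, at 94.3 against 149 to 163, gave a ratio of 0.83.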

How the results depend on the processing

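The count of 67 called probe sets was 127 with array weights, 114 with the poly-A control level as a block, 31 without normal replicate 4 and dystrophic replicate 3 together, and 25 to 61 with 1 array left out (34, 29 and 25 without dystrophic replicate 2, 3 or 4). With the replicate number as a block it was 105. Deviations of same-numbered pools from their group means correlated at 0.48, -0.05, 0.15 and 0.13 for numbers 1 to 4. Not every pool correlated best with its own number. The poly-A control level was the same in both pools of each number, with numbers 2 and 4 sharing 1 level. The labels do not say whether the numbers pair the pools, and these values do not settle it. The count of called receptor probe sets was 0 throughout, except 1 with array weights (Csf1r 1419872_at). The median difference of the tested receptor probe sets and the difference between receptor classes moved by less than 1 SD under each of the 21 alternatives. The SD meant here is the pooled spread between pools within a group. For the class difference of 0.37 the SD was 0.26 among normal and 0.33 among dystrophic pools. A move of less than 1 SD therefore says little about its stability. The class difference was 0.26 with an offset of 64 and 0.21 without dystrophic replicate 1. With the genes above the filter only it was 0.28, a setting added after seeing the data. Other macrophage genes, 5 called, had 2 called with the lowest 60% left out, when 3 of the 5 were not tested, and 3 without both outermost arrays. Each tested receptor probe set kept its direction wherever it was tested, except Cd14, which ranged from -0.03 to 0.30 with 1 array left out and was negative in 3 of those fits (-0.02 and -0.03 when normal replicate 1 or 2 was left out, -0.0308 when dystrophic replicate 4 was). The filter left 6 receptor probe sets to test with the lowest 60% left out. The untested Msr1 1425435_at was at 1.55 with an offset of 1, against 0.80. Probe sets at the level of Msr1 1425435_at, Itgam or Fcgr1 carry little information at this signal. Limma's intervals for the receptors had a median half-width of 0.41, and with an interval of that width a smaller difference could not be told from 0. The widths differed: the interval ran from 0.27 to 0.76 for Csf1r 1419872_at and from -0.92 to 0.22 for Cd163.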

Other observations

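Among 10 transcription factors of myeloid cells, 9 were measured and 7 tested, of which limma called 0 by the brightest probe set of each. Of the 7, Mitf alone had an unadjusted p under 0.05, and it was lower. Of all tested probe sets 9.72% had such a p in either direction, and 5.60% had one and were higher. Spi1, which encodes PU.1, had 136.3, 137, 162 and 108 in normal and 157, 170.3, 198 and 185 in dystrophic pools. The groups overlapped through normal replicate 3, and the difference was 0.36 (SE 0.18, 95% interval -0.03 to 0.75, limma adjusted p = 0.543). Runx1, a factor of blood cells that muscle fibres also make after denervation, had probe sets that disagreed. The brightest, 1452530_a_at, was at 0.28 (limma adjusted p = 0.689) and 1452531_at at -0.28 (limma adjusted p = 0.811), while 1422865_at had 74.1, 104.0, 62.2 and 67.9 in normal and 197, 181, 248 and 223 in dystrophic pools (1.31, SE 0.20, limma adjusted p = 0.0159). With both outermost arrays, normal 4 and dystrophic 3, left out, its limma adjusted p was 0.145. The probe set was tested in the 4 fits without a normal pool and fell below the filter when any 1 dystrophic pool was left out, so it passed the filter through the group in which it was high. Another, 1422864_at, was below the filter with 5.36 to 35.9 in normal and 72.0 to 221 in dystrophic pools.

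The monocyte chemokine receptors were below the filter. The brightest Ccr2 probe set, 1421187_at, had 46.7 to 80.4 in normal and 96.6 to 161 in dystrophic pools, with no overlap. In the other Ccr2 probe sets, 1421186_at and 1421188_at, the groups overlapped. The brightest Cx3cr1 probe set had 23.2 to 71.2 in normal and 56.9 to 270.0 in dystrophic pools. The other, 1450019_at, had 6.92 to 18.0 and 2.73 to 66.1. Among 9 endothelial genes limma called 0, with 3 lower at an unadjusted p under 0.05. Over all tested probe sets 9.72% had such a p in either direction, and 5.60% had one and were higher.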
